A study of Caenorhabditis elegans with 2 samples.

Results

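The histone genes of Caenorhabditis elegans were examined for regions recovered with VAB-15, a homeodomain protein of the Msx class. The genes were all protein-coding genes of the WBcel235 annotation whose name is his- followed by a number. There were 72 of them among 19973 protein-coding genes, at 19 loci when gene bodies at most 10000 bp apart were taken as 1 locus. By RefSeq product, or by closest protein where the product named no class, 17 encode H2A, 17 encode H2B, 21 encode H3 or an H3 variant and 16 encode H4. The remaining gene is his-24, a linker histone. A region was assigned to a histone gene when its summit lay within 2000 bp of any of the gene's annotated transcript starts. Of the 30000 regions of the authors' pooled list, 36 met this rule.

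The measurements were ChIP-seq (sequencing of DNA bound to an immunoprecipitated protein) in whole L1 larvae of mixed sex, starved after bleaching. All larvae were of strain XIL99, in which a CRISPR insertion at vab-15 adds a GFP-FLAG tag to the C-terminus of VAB-15, and the precipitation used an anti-GFP antibody. There were 2 biological replicates of this single group, each a pool of male and female animals. No untagged or input list was used here, so no test between groups was possible, and all counts below are descriptions.

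Histones package DNA into nucleosomes, with H2A, H2B, H3 and H4 forming the core and the linker histone H1 binding the DNA between cores. Most core histone genes of animals are short, intron-free and arranged in clusters, and are transcribed mainly when DNA is replicated. Other histone genes, among them those for the variant H3.3, contain introns and can be expressed outside DNA replication. Newly hatched worms without food arrest as L1 larvae with their blast cells not dividing. VAB-15 is known from worm genetics for its part in making the touch receptor neurons.

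The sequences around 5 histone summits follow first, because 3 of them share a word that also lies upstream of many clustered histone genes. Each is the reference sequence from 50 bp before to 50 bp after the summit. Capitals mark the longest word that the windows of any pair of histone regions had in common, or its first 14 bases where only those were there. The windows of his-72 and his-35 hold no part marked by this rule and are given because their regions belong to the authors' optimal set. The strand is the one on which the word reads forward, or the strand of the named gene.

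his-37, chrV:9546978-9547078, plus strand: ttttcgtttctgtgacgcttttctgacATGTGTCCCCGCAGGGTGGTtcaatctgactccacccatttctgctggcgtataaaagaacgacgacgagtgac
his-24, chrX:14490010-14490110, plus strand: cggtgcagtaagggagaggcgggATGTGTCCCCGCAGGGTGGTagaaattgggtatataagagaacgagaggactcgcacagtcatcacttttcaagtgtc
his-59 and his-60, chrIV:7488065-7488165, minus strand: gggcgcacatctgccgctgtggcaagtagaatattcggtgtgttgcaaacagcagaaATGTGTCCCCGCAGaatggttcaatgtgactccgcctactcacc
his-72, chrIII:12369107-12369207, minus strand: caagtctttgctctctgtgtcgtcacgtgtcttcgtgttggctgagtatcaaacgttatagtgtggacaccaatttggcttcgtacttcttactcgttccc
his-35, chrV:9545119-9545219, minus strand: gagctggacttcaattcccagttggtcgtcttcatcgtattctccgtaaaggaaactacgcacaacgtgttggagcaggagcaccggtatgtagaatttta

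Of the 72 histone genes, 6 had a region of the optimal set, the authors' 990 regions that passed their reproducibility threshold. These were his-24, his-35, his-37, his-41, his-72 and his-74. That is 8.33% of the histone genes, beside 6.62 percent of all protein-coding genes, so the family as a whole stood near the background. The count rests in part on replicate 1: among the strongest 990 regions of replicate 2 alone, 3 of the 6 genes were left, and his-35, his-37 and his-41 were lost. Any pooled region was found at 29 histone genes, or 40.3%, beside 62.8 percent of all protein-coding genes. Among genes with a region, the median rank of the best region was 7620 for histone genes and 9029 for all genes, and the median signal of that region was 53.5 for histone genes and 50.2 for all genes. The order of the median ranks turned in the single lists, with 15481 for histone genes and 9222 for all genes in replicate 1. In replicate 2 it was 14893 for histone genes and 9930 for all genes. The set of genes differs by list, since each median covers the genes with a region there: 29 histone genes in the pooled list, 34 in replicate 1 and 30 in replicate 2. The signal is the authors' value per region, with no stated scale, and rank 1 is the strongest of the 30000.

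Counted as regions, 5 of the 36 histone regions, or 13.9%, were in the optimal set, beside 3.3 percent of all pooled regions and 3.89 percent of those within 2000 bp of a protein-coding start. The 5 lay at 4 of the 19 loci, and 2 of them at the same locus. Signals of the 36 regions spanned 29.7 to 182 with a median of 46.2, and those of all pooled regions had a median of 41.6. The weakest optimal region of the series had a signal of 108, the weakest optimal histone region 115, and the strongest histone region outside the set 101.

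**Figure D1:**
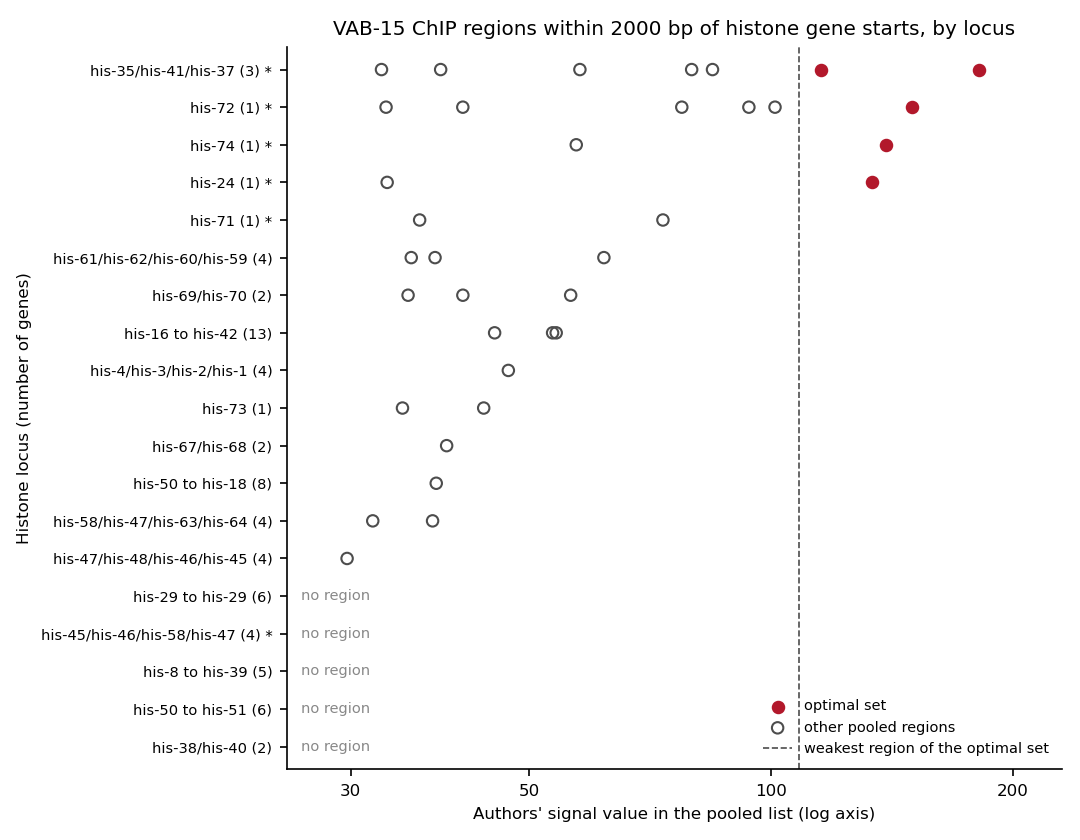
Each point is a region within 2000 bp of a histone gene start, placed by the authors' signal in the pooled list (log axis) in the row of its locus, with the number of genes in brackets and an asterisk where an intron or UTR is annotated. All 5 optimal regions (filled) lie in the upper 4 rows, and 5 loci have no region.

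The strongest histone region was at the only locus that combines intron-containing H2A, H2B and H4 genes. It spanned chrV:9546840-9547215 (ce11), between genes, with its summit 77 bp upstream of the start of his-37 (WBGene00001911), which encodes H4. Its signal was 182, rank 257 in the pooled list, with a -log10 q-value of 3.05. Replicate 1 gave it a signal of 145 (rank 182) and replicate 2 a signal of 38.6 (rank 1013). The region was among the strongest 990 in replicate 1 and fell just outside them in replicate 2. It also counted for his-35 (WBGene00001909, H2A) at 1740 bp upstream and his-41 (WBGene00001915, H2B) at 1492 bp downstream, and it lay 936 bp downstream of the start of C50F4.6.

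The second optimal region of that locus, chrV:9544981-9545356, had its summit in the coding exon of his-35, 119 bp downstream of its start and 367 bp upstream of his-41. Its pooled signal was 115 (rank 847). Replicate 1 gave 94.3 (rank 603), whereas replicate 2 gave 15.99 (rank 17943), below the median signal of 17.2 in that list. It was the optimal histone region on which the replicates differed most in rank. Of its 36-base words, 95.6% occur once in the genome.

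The H3.3 genes differed among themselves. H3.3 is the H3 variant deposited outside DNA replication, and 5 members are annotated as H3.3 or H3.3-like. At his-72 (WBGene00001946, H3.3 type 2) the optimal region chrIII:12368969-12369344 had its summit 107 bp upstream of the start, between genes. Its pooled signal was 149.7 (rank 440), with 87.5 (rank 718) in replicate 1 and 64.7 (rank 193) in replicate 2, and it was among the strongest 990 in both. Starts of rpt-6, a proteasome ATPase gene, and Y75B8A.33 also lay within 2000 bp, at 1299 and 1784 bp. By the 2000 bp rule, his-72 counted 5 further regions, more than any other single-gene histone locus. Those at ranks 2598, 15232 and 24363 were nearest to the start of Y75B8A.33. The region in an intron of his-72, nearest to a his-72 start, had a signal of 93.8 (rank 1481). Another, rank 1199 with a signal of 101, was the strongest histone region outside the optimal set and lay 1154 bp upstream of his-72 but 252 bp from the start of rpt-6.

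The second annotated H3.3 gene, his-71 (WBGene00001945, H3.3 type 1), also had a summit close upstream, at 83 bp, yet its region chrX:7981965-7982340 was weaker. Its pooled signal was 73.4 (rank 3055), with 50.6 (rank 3481) in replicate 1 and 18.2 (rank 12963) in replicate 2. In each replicate the his-71 value was below the his-72 value, though the difference between these places was not tested.

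The H3.3-like gene his-74 (WBGene00012276) was within reach of the optimal region chrV:12659419-12659794, which had a pooled signal of 139 (rank 547), 75.7 (rank 1076) in replicate 1 and 58.8 (rank 274) in replicate 2. That summit lay in the 5' UTR of ccch-3, 13 bp from the start of that gene, and 723 bp downstream of the his-74 start. The region nearest to the his-74 start, 147 bp downstream in its coding exon, had a signal of 57.2 (rank 6243). The remaining H3.3-like genes, his-69 (WBGene00001943) and his-70 (WBGene00001944), share a locus with 3 regions, none optimal. The best at his-69 had a signal of 56.3 (rank 6529) and was nearest to the start of rcq-5, and the only region at his-70 had a signal of 35.4 (rank 21518) and was in the list of replicate 2 and not of replicate 1.

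The linker histone gene his-24 (WBGene00001898) had an optimal region, chrX:14489872-14490247, with its summit 34 bp upstream of the annotated start. This is the closest summit to a start of any histone gene, and no other protein-coding start lay within 2000 bp. The summit fell in an exon of an annotated noncoding RNA gene, M163.19, which overlaps there. The pooled signal was 133 (rank 604), with 103 (rank 486) in replicate 1 and 39.5 (rank 940) in replicate 2. Besides the his-72 region it was the only optimal histone region among the strongest 990 in both replicates.

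Across the 36 histone regions, 30 were in the list of replicate 1, 22 in that of replicate 2, 17 in both and 1 in neither. These are 83.3%, 61.1%, 47.2% and 2.78%, beside 74.9%, 56.7%, 38.3% and 6.72% of all pooled regions. All 5 optimal regions were in both lists, beside 98.0% of all optimal regions. Of these 5, 4 were among the strongest 990 of replicate 1, 3 of replicate 2 and 2 of both, beside 84.6%, 66.2% and 54.6% of all optimal regions. Signals are not on the same scale in the lists, whose medians were 30.2 for replicate 1 and 17.2 for replicate 2.

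**Figure D2:**
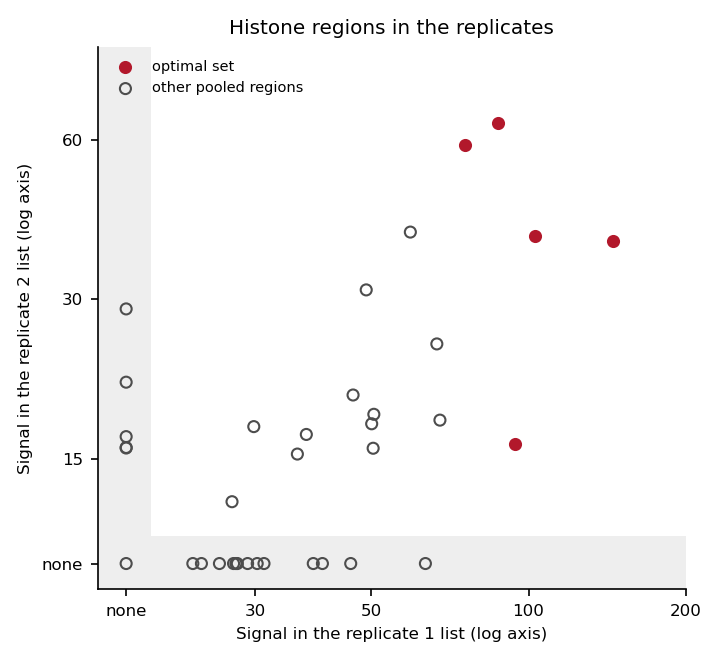
Each point is a histone region, by its signal in the list of replicate 1 and of replicate 2 (log axes), with grey bands for regions absent from a list. The optimal regions (filled) are to the upper right, except the one in his-35, at 94.3 in replicate 1 and 15.99 in replicate 2.

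Summits of the optimal histone regions lay close to starts. For 4 of the 5, the nearest histone start was within 200 bp, and the median distance was 107 bp. For the 31 other histone regions the median was 904 bp, and 6 lay within 200 bp. Of those 31, 14 were nearest to the start of another gene, beside 1 of the 5 optimal ones. The same distances were not counted for all optimal regions, so closeness to a start is not shown to be particular to histone genes. The start nearest to the summit was that of a histone gene for 21 of the 36 regions and of another gene for 15. By the rule, 15 regions counted for more than 1 histone gene. At the edge of the rule, the outermost region inside was 1999 bp upstream of a copy of his-15 (WBGene00001889) with a signal of 53.5. The first outside was 2029 bp upstream of his-42 with a signal of 82.4 (rank 2163), but closer to the start of F08G2.4.

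**Figure D3:**
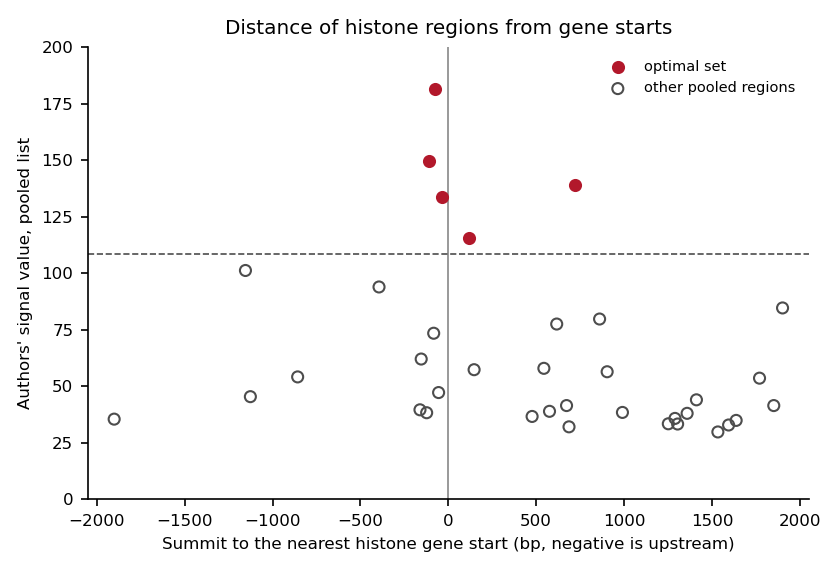
The authors' signal in the pooled list is plotted against the distance from each histone summit to the nearest histone gene start, with the weakest optimal signal of 108 as a dashed line. Of the 5 optimal regions, 4 sit within 200 bp of the start, and the fifth, at 723 bp, is the one at the ccch-3 start.

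Annotated gene structure went with these differences. An intron or a UTR is annotated for 8 histone genes: his-24, his-35, his-37, his-41, his-71, his-72, his-74 and 1 copy of his-47 (WBGene00001931). Of these, 7 had a region and 6 an optimal one, with a median best rank of 440. The shares over all protein-coding genes were 62.8 and 6.62 percent. The 6 are not separate hits. Among them, his-35, his-37 and his-41 share the same 2 optimal regions, and the his-74 region lies at the ccch-3 start. When a region counted only for the nearest protein-coding start, 4 histone genes at 3 loci kept an optimal region. The other 64 histone genes are annotated as a coding exon alone, so their annotated start is the start codon. Of these, 22 had a region, or 34.4%, and 0 had an optimal one. Their best signals within 2000 bp spanned 29.7 to 62.0 with a median of 47.1 (rank 10781), all below the 73.4 of his-71. This order depends on the edge of the rule. A region with a signal of 82.4 (rank 2163) lay 2029 bp upstream of his-42, a gene with a coding exon alone. Its summit was, however, closer to the start of F08G2.4, which is not a histone gene, than to that of his-42. The strongest inside the rule was between the divergent H2A and H2B genes his-61 and his-62 (rank 5014), 174 and 154 bp upstream of their starts. Its signal was 46.2 in replicate 1 and 19.8 in replicate 2. At the cluster of his-1 to his-4 a single region, 55 bp upstream of his-2, had a signal of 47.1 and was missing from the list of replicate 2.

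Repeated sequence moved with this split. Among the 72 genes, 37 have a coding sequence identical to that of at least 1 other copy. Within 200 bp of the start, the median share of 36-base words that occur once in the genome was 0.546% for histone genes and 100% for all protein-coding genes. It was 100% for the 8 genes with an intron or UTR and 0% for the 64 with a coding exon alone. It was 81.4% for the 29 genes with a region and 0% for the 43 without. How the authors treated reads that match several places is not given in the sources used here, and the part of repeated sequence in the missing regions was not tested.

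Histone genes were also listed by uniqueness at the start, beside all genes in the same range. Of the histone genes, 10 had at least 90% unique words at the start. All 10 had a region, beside 65 percent of the 18426 protein-coding genes with such starts, and 6 had an optimal region, beside 6.99 percent. Of the 6, his-35, his-37 and his-41 share the same 2 optimal regions, and the his-74 region lies at the ccch-3 start. The 7 of the 10 with an intron or UTR were these 6 genes and his-71. The 3 with a coding exon alone, his-68, his-69 and his-70, gave none, with best signals of 35.4 to 56.3. With a share of 6.99 percent, 3 genes are too few to show a difference. Of the 19 histone genes with 50% to 90% unique words, 13 had a region and 0 an optimal one, beside 46.9% and 3.08% of all genes in that range. Of the 43 with less than 50%, 6 had a region and 0 an optimal one, beside 21.0% and 0.942% of all genes in that range. Among genes without a region, the divergent pair his-38 (H4) and his-40 (H3) had 84.97% and 84.2% unique words and their nearest summit 3820 bp away. Another such pair, his-31 (H4) and his-32 (H3), had 87.2% and 82.0%, with the nearest summit at 14908 and 15230 bp. The part of uniqueness in these counts was not tested.

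**Figure D4:**
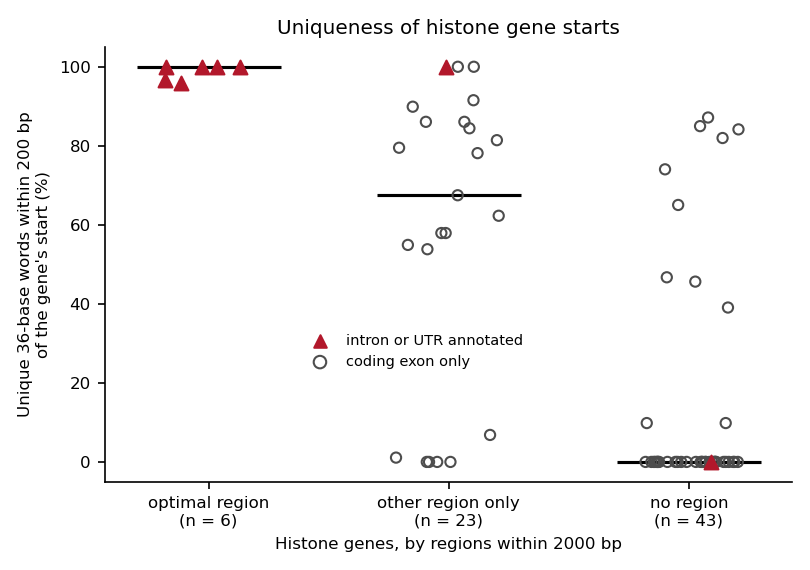
Each point is a histone gene, by the share of 36-base words within 200 bp of its start that occur once in the genome, with the median of each group as a line. The 6 genes with an optimal region (left) all have over 90% unique words and an annotated intron or UTR, and most of the 43 without a region (right) lie at or near 0%.

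The 43 genes without a region had their nearest summit at 2228 to 40712 bp, with a median of 5549 bp. They include every gene of 5 loci: his-29 to his-32, his-5 to his-8 with his-39, his-38 with his-40, a cluster of 6 genes with the names his-49 to his-52, and a cluster holding copies of his-45, his-46, his-47 and his-58. In the largest cluster, 13 genes around his-9 to his-16 and his-42, 3 genes had a region within 2000 bp. The best of these had a signal of 54.0 (rank 7416), at his-42. Of its 36-base words 59.2% occur once in the genome, and it was missing from the list of replicate 2. A stronger region of 82.4 lay outside the rule, 2029 bp upstream of his-42 but closer to the start of F08G2.4. By class, optimal regions were found at 1 of 17 H2A, 1 of 17 H2B, 2 of 21 H3 and 1 of 16 H4 genes, so no core class stood out by count. These counts are not separate. The H2A, H2B and H4 genes share the same 2 optimal regions, and the H3 count includes his-74, whose region lies at the ccch-3 start.

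The word marked in capitals above is 20 bases long and lies in both the his-37 and the his-24 window. It was picked from these windows after the sequences were seen, and its count carries no test. It occurs at 5 places in the genome, 2 of them optimal regions, and 4 of the 5 lie in a pooled region. Its first 14 bases are shared by 3 histone windows, the third being that between his-59 and his-60 (rank 18298, signal 38.2). This shorter word occurs at 30 places, of which 12 lie 61 to 141 bp from a histone start that is the nearest protein-coding start. Within 500 bp upstream of a start it was found in 22 of the 72 histone genes (30.6%), at 9 loci, and in 24 of all 19973 genes (0.120%). The 2 that are not histone genes by the naming rule are K07C5.13 and fbxb-107.

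Signal over the 14-base word differed between places, and 11 of its 30 places lay in a pooled region. Among the places nearest a histone start, those at his-68, his-60, his-37 and his-24 lay in a pooled region. Those at his-16, his-12, his-5, his-50, his-18 and his-4 did not. Of the 22 histone genes that hold the word, 12 had a region within 2000 bp, not always over the word. An optimal one was found at 2 of the 22, his-37 and his-24. Beside these stand 40.3% and 8.33% of all histone genes, and 62.8 and 6.62 percent of all protein-coding genes. Some of the 22 had 0% unique words at the start, so these counts are no result about the word. The 20 genes with the word besides his-37 and his-24 are annotated as a coding exon alone. Of these, his-59, his-60, his-67 and his-68 had 84.4% to 91.5% unique words at the start, and the regions over the word there had signals of 38.2 (his-59 and his-60) and 39.5 (his-67 and his-68), against 182 at his-37 and 133 at his-24. In his-72 and his-74, both with optimal regions, the 14-base word was not found within 500 bp upstream of a start.

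Short motifs were counted on both strands within 50 bp of the summit. TAATTG, a homeodomain-type core, was in 1 of the 36 histone windows and in 0 of the 5 optimal ones, beside 10.4% of all optimal and 7.09% of all pooled regions. TATAAA, the core of a common promoter element, was in 7 of the 36 histone windows (19.4%), beside 4.65% of optimal and 6.10% of pooled regions. Among the optimal histone windows it was in that of his-37 only. Besides that window, only the one 55 bp upstream of his-2 (rank 10781) had its summit between genes. In the others with TATAAA the summit lay in the 3' UTR of nstp-10 or in a coding exon of rcq-5, W09H1.4, cyp-31A2 or edg-1. The share is therefore not one of histone promoters. GAGCGC, a word frequent in the optimal regions of the series, was in 0 of 36, beside 15.8% and 2.77%. With 36 windows, 1 window more or less moves these shares by 2.78 percentage points.

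Genes that supply or place histones were described from a list of 25, with other linker and variant histones, chaperones and assembly factors. Of these, 20 had a region and 8, or 32%, an optimal one. Beside this stand 6.62 percent of all genes and 6.99 percent of those with at least 90% unique words at the start. The list was chosen with earlier results of these data known, so its share carries no test. Among the 8, lin-53 and rba-1 count the same region. The strongest region was at htz-1, the gene of the H2A.Z variant, with a signal of 229 (rank 123), 161 in replicate 1 and 65.6 in replicate 2. The next, with 207 (rank 171), 136 in replicate 1 and 68.3 in replicate 2, was 237 bp upstream of lin-53, which encodes an RbAp46/48-type histone-binding protein, and counted also for its relative rba-1 at 1890 bp.

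Further optimal regions lay at genes of histone assembly. The region of chaf-2, a subunit of the chromatin assembly factor CAF-1, had a signal of 154, and that of hira-1, whose relatives place H3.3 in other animals, 114. The region of unc-85, an Asf1-type H3-H4 chaperone, had 112, and that of cdl-1, which encodes the stem-loop binding protein of replication-dependent histone mRNAs, 110. The cdl-1 region had 93.3 in replicate 1 but 17.8 (rank 13661) in replicate 2. Partners and relatives of these genes had weaker regions, none optimal, with signals of 48.9 at chaf-1, 48.5 at asfl-1, 62.8 at nap-1, 83.6 at spr-2, 79.1 at xnp-1, 55.8 at spt-16 and 48.5 at hmg-4, and hmg-3 had no region. Of the 8 linker histone genes hil-1 to hil-8, only hil-7 had an optimal region, with a signal of 134. The best regions of hil-1, hil-3 and hil-5 had signals of 64.8, 101.5 and 75.3, and hil-2, hil-4, hil-6 and hil-8 had no region. All starts of the 8 genes with an optimal region were unique, and their summits were 135 to 311 bp upstream except at rba-1. The H3 variants of the centromere had no optimal region, with signals of 73.5 at hcp-3 and 41.8 at cpar-1.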

How the data were processed

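Whole-animal ChIP-seq of tagged VAB-15 was available as peak lists on build ce11, 1 for each of the 2 replicates, 1 pooled and the optimal set. In these deposited files every region has a signal value, a q-value as -log10 and the offset of its summit, all set by the authors. Per the labels' notes, a control alignment entered the lists beside those of the samples. The aligner, caller and cut-offs were not given in the sources used here. Signal served only for ranks and description inside a single list. Depth per sample is unknown, and each list holds 30000 regions, so background is included.

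Genes and starts came from Ensembl release 115 (WBcel235), products and sequence from RefSeq. A replicate's value is its strongest region over the pooled summit. Uniqueness was counted in 36-base words on both strands; the class of his-39 and his-73 came from protein alignment (Biopython 1.88). Counts were computed with Python 3.11.15 and pandas 2.3.3, and the assignment was tested on simulated data. Genes named are those with an optimal region, the 5 strongest regions, linker and variant members, and those nearest the threshold. The members and lists were chosen with earlier results of these data known. Alternatives covered the window, threshold, locus gap, word length and each replicate.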

Additional observations from a re-analysis of the deposited data

How the results depend on the processing

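The 6 histone genes with an optimal region became 5 within 500 bp, where his-74 was lost, and 4 when a region counted only for the nearest protein-coding start. With the strongest 495 optimal regions alone, 2 histone regions at 2 loci were left, those of his-37 and his-72. With all pooled regions at a q-value at or under 0.01, 8 histone regions passed, for the same 6 genes. The strongest 990 regions of a single replicate gave 3 to 5 genes: his-24, his-72 and his-74 without replicate 1, and all but his-74 without replicate 2. The median best rank of histone genes was 7620 in the pooled list, ahead of the 9029 over all genes. In single replicates it was 14893 to 15481, behind all genes (9930 without replicate 1 and 9222 without replicate 2). Each median covers the genes with a region in that list, so the gene sets differ. TAATTG was in 2 histone windows when 100 bp were read to each side. No coding-exon-only histone gene gained an optimal region under the window, q-value and replicate settings. Canonical transcript starts alone were not run, because the annotation carries no such tag. No paired analysis was possible because there is only 1 group. No control list was used and depth is unknown. For starts with few unique words, a missing region cannot be told apart from reads that could not be placed. The starts of his-38 and his-40 had no region with 84.97% and 84.2% unique words. Those of his-31 and his-32 had none with 87.2% and 82.0%, and the reason was not tested.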
